A study of Mus musculus with 7 samples.

Results

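The genes described are the nuclear-encoded subunits of the oxidative phosphorylation complexes, followed in the duodenum of mice with and without PPARα in the intestinal epithelium. The rule reads gene symbols and takes the genes of the deposited table that start with the subunit prefixes of complexes I to V, without assembly factors of the Ndufaf type. This gave 78 of the 14795 listed genes, of which 36 belong to complex I, 4 to complex II, 9 to complex III, 12 to complex IV and 17 to complex V. All 78 passed the filter on low values, a CPM (read counts that the authors scaled to an adjusted library size) above 1 in at least 3 libraries, as did 13399 of all listed genes. Ndufa4l2 passed only through 3 I-KO libraries. The rule takes in Cox7a2l, Atp5s and Atp5sl (named Dmac2 in the annotation), which are not core subunits. It also keeps Ndufa4 with complex I although its protein is now placed in complex IV. It leaves out Ndufab1 and Cox4i1, which are given below with the other respiratory chain genes. The 13 subunit genes of the mitochondrial genome were not analysed here.

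RNA came from the duodenum of C57BL/6 mice, with 1 library per mouse and 100 base single reads. The 3 Ppara lox/lox mice carried the floxed Ppara alleles without Cre, and the 4 Ppara I-KO mice carried the same alleles together with Villin-Cre, a transgene active in the intestinal epithelium. All mice were without food for 6 h and refed for 6 h before death according to the labels, and the study describes them as males on a high-fat diet with lox/lox littermates as controls. Ages were not given in the labels. Since all I-KO mice and none of the controls carried Cre, Cre itself and the loss of PPARα cannot be told apart, and cells outside the epithelium keep their Ppara. RNA was from bulk tissue, in which fewer cells of a type and less RNA per cell cannot be told apart. The labels number the mice but do not say that the libraries were prepared separately, so p-values measure the spread between these libraries.

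Oxidative phosphorylation takes place at the mitochondrial inner membrane. Complexes I (NADH dehydrogenase) and II (succinate dehydrogenase) pass electrons to ubiquinone, complex III passes them on to cytochrome c, complex IV (cytochrome c oxidase) passes them to oxygen, and complex V (ATP synthase) uses the proton gradient to make ATP. Fatty acid oxidation, whose genes PPARα is known to activate, feeds this chain with NADH and with electrons from the electron transfer flavoprotein. Expression of the subunits is known to be driven by NRF1, GABP, YY1 and estrogen-related receptors with coactivators of the PGC-1 family.

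The listed genes held about 20745052 to 25894436 reads per library, as read from the step between low values. The enterocyte markers summed to between 60086 and 78162 CPM per library, and 2 of 3 ileal markers listed to between 4 and 5 CPM. Pancreatic acinar markers (13 of 13 listed, 3 past the filter) summed to between 32 and 97 CPM in lox/lox libraries and between 27 and 418 CPM in I-KO libraries, with the highest sum in I-KO 1. Ppara was at 53.4, 49.3 and 63.2 CPM in lox/lox 1 to 3 and at 33.0, 40.6, 47.5 and 69.9 CPM in I-KO 1 to 4. Its log2 fold change was -0.25 ± 0.22 (SE) with an adjusted p of 0.954 (limma, Benjamini-Hochberg), the groups overlapped, and the library labelled I-KO 4 held the highest value. The values cover the whole gene and do not give the deleted part on its own, so this is no check of the labels. Me1, the malic enzyme and a PPARα target, stood at 39.2, 29.7 and 42.5 CPM in lox/lox 1 to 3 and at 13.3, 14.7, 12.8 and 18.0 CPM in I-KO 1 to 4, so that each I-KO library was below each control. It was 1 of 4 genes past an adjusted p of 0.05 (limma), which is 0.0299% of the 13399 tested. As a gene named for its difference between these labelled groups, Me1 is no check of the labels either.

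The comparison asks whether subunit expression moved with the loss of epithelial PPARα. No subunit gene passed the test between Ppara lox/lox and Ppara I-KO duodenum. By limma 0 of the 78 were called at an adjusted p of 0.05 and 0 were at an unadjusted p under 0.05 in either direction, where 2.32% of all tested genes were at such a p and higher in I-KO and 2.42% lower. The smallest p was 0.0611 and the smallest adjusted p was 0.954 (limma). Log2 fold changes of I-KO against lox/lox lay between -0.14 for Ndufb6 and 0.42 for Cox6b2, with a median of 0.047. Their 95% confidence intervals reached from -0.36 at the lowest to 0.87 at the highest, with a median half-width of 0.23, and for 76 of the 78 genes the whole interval lay within 0.5 of 0.

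**Figure D1:**
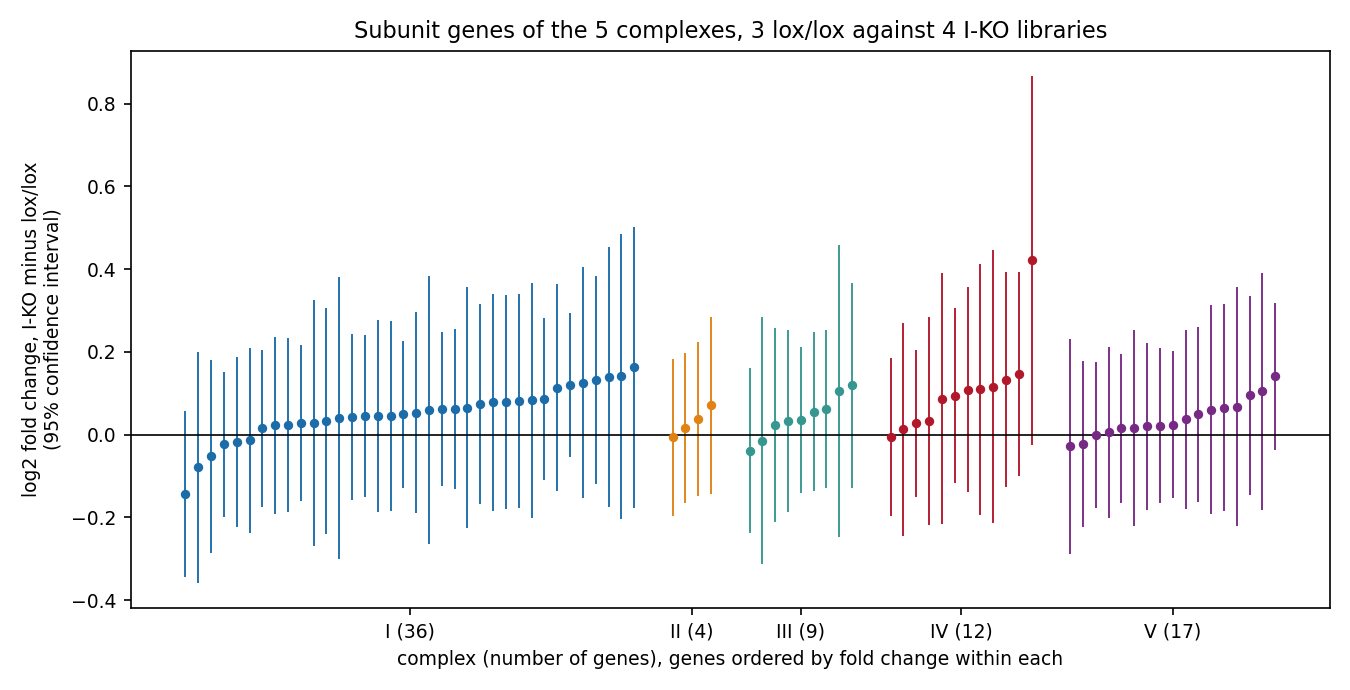
Log2 fold changes of the 78 subunit genes (I-KO minus lox/lox on log2(CPM + 1), points) with 95% confidence intervals (bars) from limma, grouped by complex on the x axis and ordered by value within each complex. Every interval spans 0, and the gene at the far right of complex IV, with the widest interval, is Cox6b2 at 0.42.

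The fitted direction was upward for 65 of the 78 genes, 83.3% where 50.6% of all tested genes were higher in I-KO. This share changed with the scaling and with single libraries. With columns scaled to equal totals 33 of the 78 genes (42.3%) were lower in I-KO in place of 13, while the share of all tested genes that were lower went from 49.4% to 60.6% and their median from 0.0017 to -0.032, so that this scaling moved the members and all genes by about the same amount. Without lox/lox 3 46 were lower with a median of -0.014, without I-KO 1 26 and without I-KO 2 25. Without lox/lox 1, lox/lox 2 or I-KO 4, between 6 and 8 were lower.

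The groups did not overlap for 2 of the 78 genes (2.56%), both higher in I-KO, where this held for 2.91% of all tested genes, and for 0 genes in the lower direction, where it held for 3.28%. Atp5d (chr10:80138632-80145818, + strand, GRCm38) encodes the delta subunit of the ATP synthase central stalk. It was at 379, 377 and 350 CPM in lox/lox 1 to 3 and at 433, 402, 401 and 391 CPM in I-KO 1 to 4. Its log2 fold change was 0.14 ± 0.079 (SE), with an adjusted p of 0.954 (limma). Ndufb2, an accessory subunit of the complex I membrane arm, was named for its separation after the values were seen. It was at 47.1, 48.8 and 43.8 CPM in lox/lox 1 to 3 and between 49.9 and 52.4 CPM in the 4 I-KO libraries, with a log2 fold change of 0.12 ± 0.077 (SE).

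Complex I is the largest of the complexes, with a flavin and iron-sulfur arm in the matrix and a proton-pumping arm in the membrane. Its 36 genes had a median log2 fold change of 0.051, with 30 above 0 and 6 below, and 0 at an unadjusted p under 0.05 (limma), as for the members altogether. Ndufs1, which carries iron-sulfur clusters of the matrix arm, was at 190, 193 and 175 CPM in lox/lox and at 181, 210, 182 and 194 CPM in I-KO libraries. Ndufv1, which holds the NADH site, was at 234, 237 and 215 CPM in lox/lox and at 241, 242, 240 and 224.5 CPM in I-KO libraries. Both genes overlapped between the groups, with the lowest value of the 7 in lox/lox 3. The largest fitted rise was that of Ndufa2, an accessory subunit, with 94.2, 96.5 and 77.7 CPM in lox/lox and 127, 95.4, 101 and 80.9 CPM in I-KO libraries. Only I-KO 1 and I-KO 3 were above all controls, and the log2 fold change was 0.16 ± 0.15 (SE). The largest fitted fall was that of Ndufb6 in the membrane arm, with 69.4, 69.8 and 59.5 CPM in lox/lox and 59.5, 63.4, 58.8 and 57.2 CPM in I-KO libraries. Its log2 fold change was -0.14 (95% interval -0.34 to 0.056), and lox/lox 3 lay among the I-KO libraries.

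Succinate dehydrogenase is both a tricarboxylic acid cycle enzyme and an entry point to the chain. Sdha, the flavoprotein, was at 796, 775 and 734 CPM in lox/lox 1 to 3 and at 739, 834, 767 and 771 CPM in I-KO libraries, with a log2 fold change of 0.017 (95% interval -0.16 to 0.20). Sdhb, the iron-sulfur protein, was at 320, 316 and 283 CPM against 303, 332, 310 and 313 CPM. Sdhc and Sdhd, the membrane anchors, had log2 fold changes of 0.071 ± 0.095 and -0.0063 ± 0.084 (SE). The 4 genes had a median of 0.027 and the groups overlapped for each of them. For 3 of the 4 the fitted value changed sign without lox/lox 3, that of Sdha also without I-KO 2, and that of Sdhd changed sign without lox/lox 1, lox/lox 2 or I-KO 4, as given in the closing section.

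Complex III had a median of 0.035 over 9 genes, 7 of them above 0. Uqcrc1 and Uqcrc2 are its core proteins, Uqcrfs1 is the Rieske iron-sulfur protein and Cyc1 is cytochrome c1. Uqcrc1 was at 603, 584 and 524 CPM in lox/lox and at 582.5, 628, 590 and 566 CPM in I-KO libraries. Uqcrc2 was at 446, 443.5 and 403 CPM against 389, 459, 409 and 421 CPM, the largest fitted fall of the complex at -0.039 ± 0.088 (SE). Uqcrfs1 and Cyc1 had values of 0.033 ± 0.097 and 0.035 ± 0.078 (SE). The hinge protein Uqcrh varied more, with 446, 463 and 366 CPM in lox/lox and 552, 467, 476 and 349 CPM in I-KO libraries, so that the lowest and the highest value were both from I-KO mice. Uqcrq, a small subunit, had the largest fitted rise of the complex, at 0.12 ± 0.11 (SE).

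Complex IV had the largest median of the 5 complexes, 0.10 over 12 genes with 11 above 0, beside 0.0017 over all tested genes. This median moved with single libraries and was 0.030 without lox/lox 3 and 0.029 without I-KO 1, where complex II had the larger median, 0.036. Cox5a, which binds the matrix side of the core, was at 385, 375 and 314 CPM in lox/lox and at 475, 397, 387 and 307 CPM in I-KO libraries. Cox5b, the zinc-binding subunit, was at 316, 295 and 264 CPM against 353, 331, 300 and 276 CPM. Cox8a, a small membrane subunit, was at 381, 388 and 326 CPM against 460, 409, 394 and 357 CPM. In each of these 3 genes I-KO 1 was the highest library and the groups overlapped, and log2 fold changes were 0.12 ± 0.15, 0.11 ± 0.11 and 0.15 ± 0.11 (SE). Cox7b, another small membrane subunit, had the only fitted fall of the complex, at -0.0060 ± 0.084 (SE). With Ndufa4 counted in complex IV, the median stayed within the spread between libraries.

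Tissue isoforms of complex IV were present as well. Cox6b2 (chr7:4751792-4753094, - strand, GRCm38), a form known from testis, was at 4.79, 3.56 and 3.18 CPM in lox/lox and at 6.61, 5.81, 6.41 and 3.43 CPM in I-KO libraries. I-KO 1 to 3 were above all controls and I-KO 4 lay within them, with a log2 fold change on the log2(CPM + 1) scale of 0.42 ± 0.20 (SE), an exact permutation p of 0.143 and an adjusted p of 0.954 (limma). Without I-KO 4 the value was 0.60 with an adjusted p of 0.489 (limma), the highest with a library left out. It was also above 0.42 without lox/lox 1, and below 0.42 without any other single library. Its ubiquitous partner Cox6b1 was at 453, 432 and 369 CPM against 533, 459, 456 and 365 CPM. Per length of merged exons, Cox6b2 made up 0.757% ± 0.103 (SD, n = 3) of both forms in lox/lox and 1.00% ± 0.160 (SD, n = 4) in I-KO duodenum, with an exact two-sided permutation p of 0.0857. Cox7a1, the form known from heart and skeletal muscle, made up 23.1% ± 1.801 (SD, n = 3) of Cox7a1 and Cox7a2 in lox/lox and 24.1% ± 1.25 (SD, n = 4) in I-KO duodenum (exact two-sided permutation p of 0.4). Striated muscle markers (2 of 6 listed) summed to between 11 and 20 CPM in lox/lox and between 13 and 71 CPM in I-KO libraries, and smooth muscle markers (10 of 10 listed) to between 1849 and 2194 and between 1854 and 2474 CPM, both with the highest sum in I-KO 1. Their part in the level of Cox7a1 was not tested. Ndufa4l2, the paralog of Ndufa4, was listed at 0.99, 0.90 and 0.94 CPM in lox/lox and at 1.10, 1.10, 1.38 and 0.70 CPM in I-KO libraries, against 187 to 250 CPM for Ndufa4.

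The 17 genes grouped by symbol with ATP synthase, Atp5s and Atp5sl included, had a median of 0.024, with 14 of them above 0. Atp5a1 and Atp5b encode the alpha and beta subunits of the catalytic head. Atp5a1 was at 2065, 2052 and 1880 CPM in lox/lox and at 1955, 2137, 2013 and 1972 CPM in I-KO libraries, with a log2 fold change of 0.015 (95% interval -0.16 to 0.19). Atp5b was at 2366, 2424 and 2344 CPM against 2285, 2563, 2350 and 2486 CPM, with 0.024 (95% interval -0.15 to 0.20). The c ring, the rotor of the membrane part, is made of 1 mature protein encoded by 3 genes that differ in their import sequences. Atp5g3 was at 935, 904 and 791 CPM against 937, 900, 948 and 809 CPM, and Atp5g1 and Atp5g2 were at 215.5 to 257 CPM and 131 to 162 CPM over all 7 libraries. Per merged exon length Atp5g3 made up 82.8% ± 0.328 (SD, n = 3) of the 3 in lox/lox and 82.98% ± 1.04 (SD, n = 4) in I-KO duodenum (exact two-sided permutation p of 0.886). Per shortest coding transcript, with Atp5g1 at 596 in place of 4912 bases, the shares of Atp5g3 were 62.7% ± 0.259 (SD, n = 3) and 63.1% ± 1.98 (SD, n = 4), so the balance of the 3 genes depends on which transcript is made, while the comparison of the groups gave an exact p of 0.857. Atp5s had the largest fitted fall of the complex, at -0.028 ± 0.11 (SE) on levels of 4.13 to 5.83 CPM.

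Levels between genes were compared as CPM per kb of merged exons, averaged over the 7 libraries. Atp5b led at 1254 CPM per kb, followed by Atp5g3 at 1228, Cox6a1 (a complex IV subunit of non-muscle tissues) at 879 and Atp5o (the stalk subunit OSCP) at 839. Median levels per kb were 99.2 for complex I, 270 for complex II, 348 for complex III, 323 for complex IV and 300.3 for complex V. Per shortest coding transcript they were 156, 337, 352, 504 and 499.8, and complex I had the lowest median on both scales. The lowest levels per kb were those of Ndufa4l2 at 1.09, Atp5s at 3.10 and Cox6b2 at 6.51. Of the genes grouped with complex I, Ndufa4 was highest at 354, just above the complex III median. Ndufb9 followed at 286, below that median. Sdhd led complex II at 444 and Uqcrh complex III at 815.

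**Figure D2:**
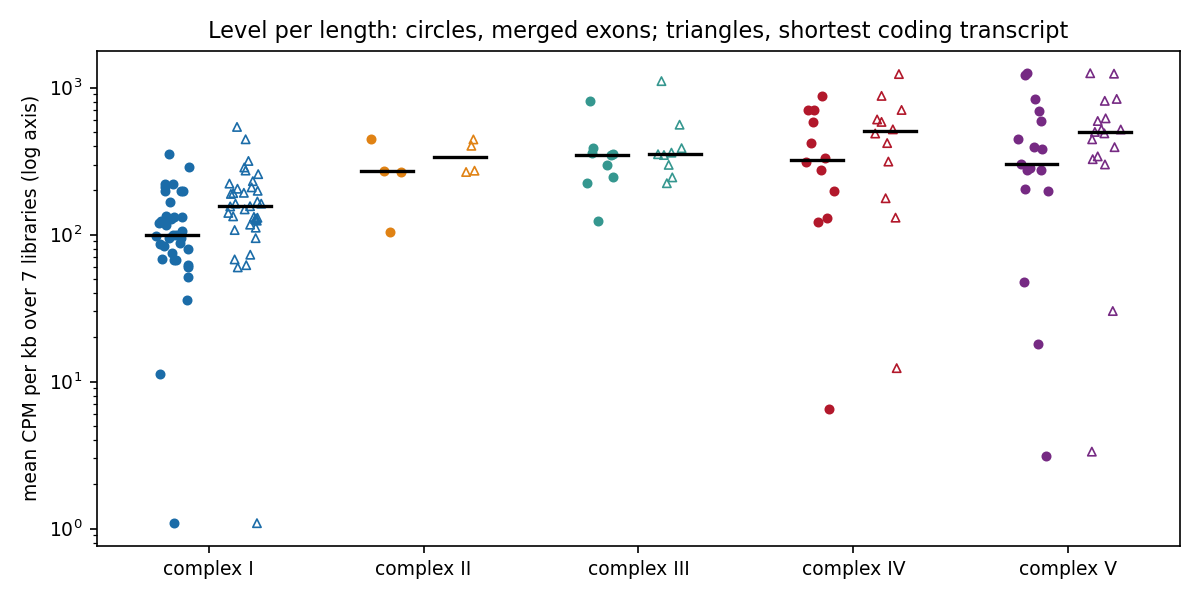
Mean CPM per kb over the 7 libraries (log y axis) for each subunit gene by complex (x axis), per merged exon length (filled circles) and per shortest coding transcript (open triangles), with black bars at the medians. Complex I has the lowest median on both scales, 99.2 and 156.

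Promoter windows of RefSeq (GRCm38.p6, 250 bases before to 50 after each annotated start) were matched for 66 of the 78 genes, 3 of them through a synonym. The NRF1 core GCGCATGC was found on either strand in 10 of the 66 genes, 15.2%, and in 3.05% of 27025 genes with a window and 5.79% of the 9993 of them that were tested. It is shown for 5 genes of 3 complexes because the same letters recur near the start, with the core in capitals and 10 bases on each side. The palindromic form GCGCATGCGC holds the core on both strands.
Sdhb (chr4:140961207-140961234, + strand): agcccagtggGCATGCGCcctacgggcc
Ndufa6 (chr15:82354357-82354384, - strand): ccgcggtagaGCATGCGCattgcagagc
Ndufa11 (chr17:56717692-56717721, + strand): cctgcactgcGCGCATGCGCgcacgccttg
Atp5g2 (chr15:102671070-102671099, - strand): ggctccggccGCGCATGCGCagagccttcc
Atp5k (chr5:108434430-108434459, - strand): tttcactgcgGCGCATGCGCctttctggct
Cox6a1, the leading complex IV gene per merged exon length (per shortest coding transcript Cox6b1 led, at 1238 against 879 CPM per kb), held the NRF1 core and the ETS core CCGGAAG bound by GABP in 1 window, and is shown from 10 bases before its NRF1 core to the base before the start, with both cores in capitals.
Cox6a1 (chr5:115348959-115349130, - strand): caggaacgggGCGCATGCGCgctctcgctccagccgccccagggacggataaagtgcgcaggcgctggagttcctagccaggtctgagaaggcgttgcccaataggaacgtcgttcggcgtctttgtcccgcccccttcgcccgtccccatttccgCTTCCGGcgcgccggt
The ETS core was found in 16 of 66 genes, 24.2%, against 9.93% of all and 18.8% of tested genes. The 5 genes Atp5k, Atp5l, Cox6a1, Sdhb and Uqcr11 held both cores. On the strand of the gene alone the shares were smaller, 7.58% of the members for the NRF1 core (2.11% of all and 4.09% of tested genes) and 7.58% for the ETS core (5.40% of all and 10.5% of tested genes), so that the ETS core was then less frequent in the members than in tested genes.

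The YY1 core AANATGGCG was found in 11 of 66 genes, 16.7%, against 2.76% of all and 5.62% of tested genes. In 8 of the 11 it began 16 to 35 bases after the annotated start. The core holds the letters ATG of a start codon, and whether these 8 matches lie at translation starts was not tested. Of the 11 genes, 7 were grouped with complex I and 4, Atp5sl among them, with complex V. A selection of 6 is shown, with the core in capitals, since its place relative to the start recurs among them. Atp5b holds it on the opposite strand.
Ndufa9 (chr6:126849097-126849125, - strand): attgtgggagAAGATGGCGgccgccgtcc
Ndufc1 (chr3:51408915-51408943, - strand): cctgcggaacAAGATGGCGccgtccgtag
Ndufs6 (chr13:73328433-73328459, - strand): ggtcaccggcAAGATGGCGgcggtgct
Ndufs7 (chr10:80249463-80249491, + strand): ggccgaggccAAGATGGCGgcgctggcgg
Atp5j2 (chr5:145191500-145191528, - strand): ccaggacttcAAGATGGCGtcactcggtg
Atp5b (chr10:128083313-128083341, + strand): acccggattcCGCCATGTTgagtcttgtg
The estrogen-related receptor element TNAAGGTCA was found in Atp5g3, Ndufb4 and Sdhd, 4.55% of 66 genes against 1.43% of all and 0.931% of tested genes. A PPAR element, read as 2 AGGTCA half-sites in the same direction with 1 base between them, was found in 0 of the 66 genes and in 0.0481% of all genes. These are matches of letters in short windows, and no match says only that the letters are not there. Median log2 fold changes were 0.065 for the 10 genes with the NRF1 core and 0.042 for the 56 without, and 0.024 for the 11 with the YY1 core and 0.055 for the 55 without, given as a description without a test.

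Subunit genes varied together from library to library within both genotypes. The median deviation of the 78 genes from their mean over the 7 libraries was 0.043, 0.019 and -0.15 on the log2 scale in lox/lox 1 to 3 and 0.13, 0.082, 0.016 and -0.13 in I-KO 1 to 4. On the deposited scale lox/lox 3 and I-KO 4 were lowest and I-KO 1 was highest, so that the groups overlapped. I-KO 1 was the highest of the 7 libraries in 46 genes (59.0%, against 22.5% of all tested genes) and I-KO 2 in 21 (26.9%, against 7.96%). Lox/lox 3 was the lowest in 42 genes (53.8%, against 12.6%) and I-KO 4 in 31 (39.7%, against 17.4%). Both of these lay below all 5 other libraries in 52 of the 78 genes (66.7%, against 10.7%), a pair chosen after the values were seen. Summed over the 78 genes, the libraries held 22207, 21938 and 19676 CPM in lox/lox 1 to 3 and 22954, 22840, 21829 and 20220 CPM in I-KO 1 to 4. As shares of all values in each library these sums were 2.12%, 2.21% and 2.03% in lox/lox 1 to 3. In I-KO 1 to 4 the shares were 2.23%, 2.25%, 1.99% and 2.08%. By share I-KO 3 was lowest and I-KO 2 highest, so the order of the libraries depends on the scaling.

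Lox/lox 3 and I-KO 4 had the lowest medians in each complex, with I-KO 4 the lower of them in complexes I and III and lox/lox 3 in the others. I-KO 1 was highest in complexes I, III and IV and stood level with I-KO 2 in complex V, at 0.079 in both. Complex IV ranged most, from -0.20 in lox/lox 3 to 0.21 in I-KO 1, and complex I from -0.16 in I-KO 4 to 0.13 in I-KO 1. In complex II I-KO 1 stood at -0.0048 and I-KO 2 was highest at 0.063.

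**Figure D3:**
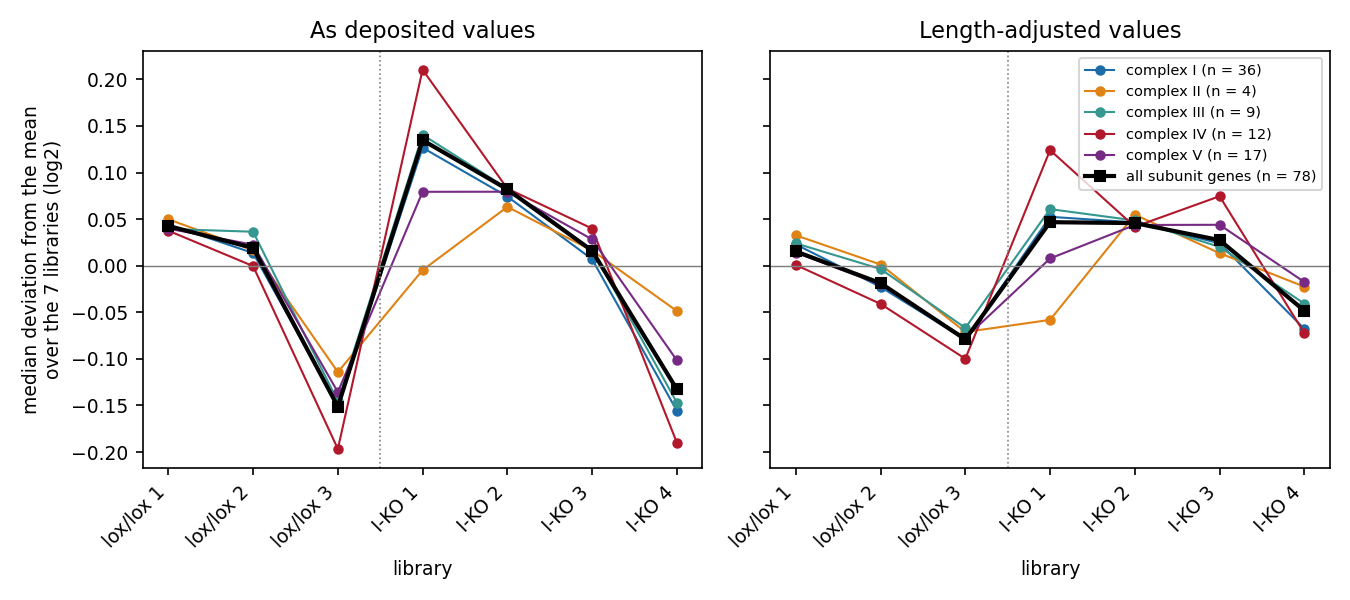
Median log2 deviation of the subunit genes of each complex (coloured points) and of all 78 (black squares) from their mean over the 7 libraries (y axis), by library (x axis), as deposited on the left and after subtraction of the median deviation of tested genes of like length on the right. Lox/lox 3 and I-KO 4 are low and I-KO 1 is high on the left, and the range of the black line shrinks from 0.286 to 0.126 on the right.

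The shift was larger in genes with a short merged exon length, which is not the length of the transcript made. The 30 subunit genes with up to 800 bases of merged exons had medians of -0.18 in lox/lox 3, 0.19 in I-KO 1 and -0.21 in I-KO 4. The 10 subunit genes above 2000 bases had -0.10, 0.027 and -0.032. Other tested genes of up to 800 bases (n = 251) moved the same way by less, with -0.10, 0.10 and -0.11, and the 9682 other genes above 2000 bases stayed between -0.0087 and 0.025 in all libraries. Subtracting in each library the median of tested genes of like length, in 20 bins and chosen after the data were seen, reduced the range of the members' medians from 0.286 to 0.126, with -0.079 in lox/lox 3, 0.047 in I-KO 1 and -0.048 in I-KO 4 left. After it the median log2 fold change of the members was 0.042 and 13 of 78 were lower in I-KO, as before. Of the marker lists, smooth muscle genes had medians of -0.19 in lox/lox 3, 0.32 in I-KO 1 and -0.20 in I-KO 4, and enterocyte genes -0.054, 0.045 and -0.054. Goblet cell genes had -0.078, 0.14 and -0.16 in the same libraries, with sums between 10565 and 12163 CPM in lox/lox and between 9964 and 12902 CPM in I-KO libraries. Cytosolic ribosomal proteins had -0.13, 0.026 and -0.078, and mitochondrial ribosomal proteins -0.079, 0.070 and -0.092. The proximal duodenum markers (5 of 5 listed) had -0.63, -0.14 and 0.090 and were lowest in lox/lox 3 in 4 of 5 genes, with a sum of 343 CPM there and between 436 and 589 CPM in the other libraries. The part of tissue composition or of RNA quality in the shift was not tested.

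**Figure D4:**
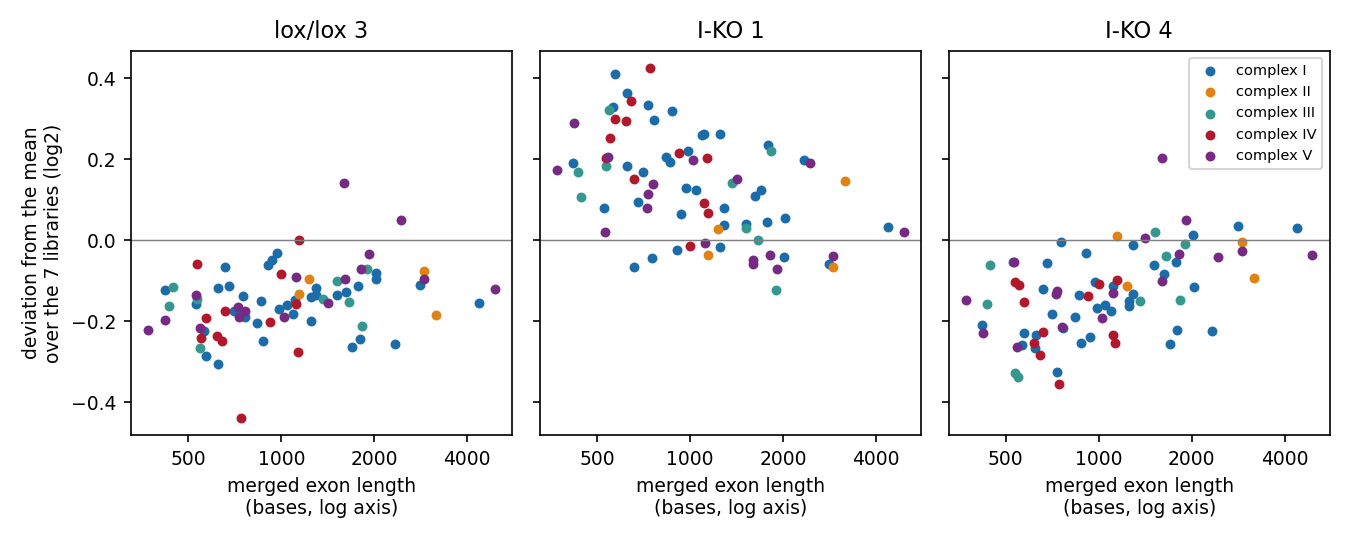
Deviation of each of the 78 subunit genes from its mean over the 7 libraries (log2, y axis) against merged exon length in bases (log x axis) for lox/lox 3, I-KO 1 and I-KO 4, coloured by complex. Genes with a short merged exon length sit farther from 0 than those with a long one, below 0 in lox/lox 3 and I-KO 4 and above 0 in I-KO 1.

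Genes that work beside the subunits were read from lists. Of 10 tested other subunits and carriers, 8 were above 0 with a median of 0.040. Ndufab1, the acyl carrier protein of complex I, was at 97.4, 103 and 92.9 CPM in lox/lox and at 104, 105, 93.6 and 90.5 CPM in I-KO libraries, with a log2 fold change of 0.0054 ± 0.088 (SE). Cox4i1, the largest nuclear-encoded complex IV subunit, was at 711.5, 711 and 598 CPM in lox/lox and at 844, 714, 743 and 575.5 CPM in I-KO libraries, with the same low and high libraries. Cytochrome c (Cycs) was at 680, 593 and 533 CPM against 499.5, 573, 595 and 519 CPM, with a log2 fold change of -0.13 ± 0.11 (SE). Etfdh, which passes electrons from fatty acid oxidation to ubiquinone, was at 116, 112 and 141 CPM against 97.9, 107, 100.5 and 108 CPM. All I-KO values of Etfdh were below all controls, with a log2 fold change of -0.24 ± 0.10 (SE), an unadjusted limma p of 0.0394 and an adjusted p of 0.954.

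Of 38 assembly factors, 15 were above 0 and 23 below with a median of -0.041. At an unadjusted p under 0.05 there were 2, both lower in I-KO, against 2.42% of all tested genes (limma). The groups did not overlap for 3 of the 38, all lower in I-KO, where this held for 3.28% of all tested genes. Ndufaf4, an assembly factor of complex I, was at 30.3, 28.3 and 25.9 CPM in lox/lox and at 22.2, 22.9, 20.02 and 22.4 CPM in I-KO libraries, with no overlap, a log2 fold change of -0.35 ± 0.088 (SE) and an adjusted p of 0.780 (limma). Tmem70, an assembly factor of complex V, had -0.22 ± 0.092 (SE) with an adjusted p of 0.954 (limma). Of 14 regulators of mitochondrial biogenesis, 4 were above 0 and 10 below, with a median of -0.055 and 0 at an unadjusted p under 0.05 (limma). Mitochondrial ribosomal proteins had 25 of 76 above 0 with a median of -0.050, and cytosolic ribosomal proteins 17 of 85 with -0.030.

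The list of PPARα targets had the lowest median of those described. It was chosen with earlier results of these data known, so its counts are a description and no independent check. Of 21 tested, 20 were below 0 with a median of -0.43, and 1, Me1, passed the adjusted threshold (limma). At an unadjusted p under 0.05 there were 15, all lower in I-KO, against 2.42% of all tested genes (limma). Cyp4a10, 1 of the 15, was at 1.78, 2.57 and 4.87 CPM in lox/lox and at 0.21 to 0.58 CPM in I-KO libraries. It passed the filter only through the 3 lox/lox libraries, so the filter favoured its direction. Without any 1 of them it was not tested. Lox/lox 3 was the highest of the 7 libraries in 17 of the 21 genes (81.0%, against 12.5% of all tested genes), with a median deviation of 0.36 beside 0.25 and 0.14 in lox/lox 1 and 2. Without it 19 of 20 were below 0 with a median of -0.39 and 11 were lower at an unadjusted p under 0.05, and Me1 no longer passed (limma), as also without lox/lox 1 or any 1 of I-KO 1 to 3. Cpt1a, the carnitine acyltransferase of mitochondrial fatty acid entry, was at 96.4, 104 and 122 CPM in lox/lox and at 57.7, 63.1, 64.0 and 72.8 CPM in I-KO libraries, with a log2 fold change of -0.72 ± 0.11 (SE) and an adjusted p of 0.134 (limma). Slc25a20, the carnitine-acylcarnitine carrier, was at 105, 104 and 130 CPM against 62.8, 62.9, 73.3 and 54.2 CPM, with -0.83 ± 0.12 (SE). The difference between the lists was not tested.

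**Figure D5:**
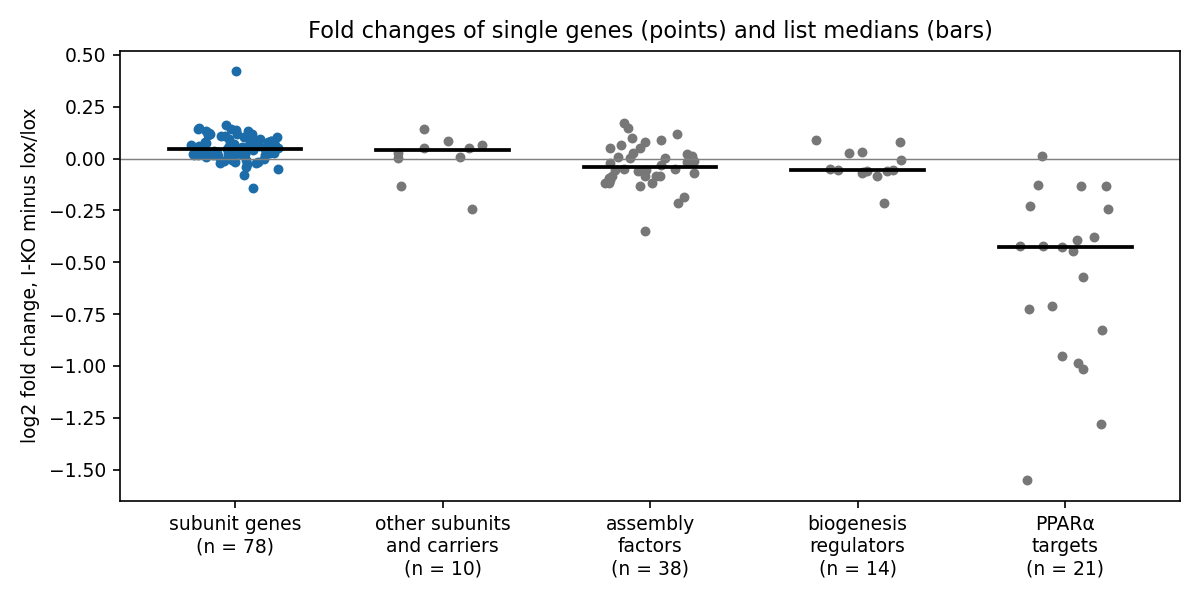
Log2 fold changes (I-KO minus lox/lox, y axis) of the tested genes of each list (points) with list medians (bars), for the 78 subunit genes, other subunits and carriers, assembly factors, biogenesis regulators and PPARα targets (x axis). Medians are 0.047, 0.040, -0.041, -0.055 and -0.43 in this order.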

How the data were processed

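RNA of 3 Ppara lox/lox and 4 Ppara I-KO duodena was sequenced from stranded poly(A) libraries. The authors deposited 1 table of signal values, reads per gene after scaling by an adjusted library size (CPM, 2 decimals), and 1 line without a gene name was dropped. The submitters' processing notes name TopHat2 2.0.13, Picard 1.80, HTSeq 0.6.1, edgeR and the mm10 genome. The paper's methods use edgeR on counts. Since the deposited values are scaled, limma 3.58.1 (R 4.3.3) was used instead, on log2(value + 1) of the 13399 genes that exceeded 1 CPM in 3 or more libraries, with genotype as the only term, two-sided p-values and Benjamini-Hochberg adjustment over all tested genes. The pseudocount of 1 understates changes of low genes. How reads shared with processed pseudogenes were counted is not given in the sources used here, so subunit genes with near-identical copies are uncertain.

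The depth was read from the low values, which are multiples of the value of 1 read (0.0393 to 0.0530 CPM). All values up to 20 steps were whole multiples within the rounding of 0.005 CPM, which alone exceeds 0.1 of a step in most libraries (79.2% to 100% lay within 0.1). Tests on recovered counts were not run here. Exon lengths came from the basic GENCODE M21 annotation of GRCm38 (mm10), which held all 78 members, Atp5sl through its synonym. Replicates differed by more than sampling noise. The fit was also run on simulated data, and the outcome is not reported here. Members and gene lists were chosen with earlier results of these data known. Genes named were, per complex, those with the largest fitted rise and fall and the highest level per length, a fixed set of core subunits and tissue isoforms, and list genes at an unadjusted p under 0.05 (up to 5 per list). The values of 1 gene of the fixed set are not reported here. Alternatives were other scalings, no filter, a pseudocount of 0.5, a replicate block, variance priors, sample weights, each library left out in turn and, added after seeing the data, a length adjustment, another gene length and, for PPARα targets, each library left out. Figures were drawn with Python 3.11.15, pandas 2.3.3 and matplotlib 3.10.9.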

Additional observations from a re-analysis of the deposited data

Results flagged for a closer look

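Over the 33 named subunit genes and the medians of the members and of each complex, 39 sets of 4 I-KO values were searched for a library far from the others, which chance alone finds in about 1 in 20 groups. Ndufv1 was at 224.5 CPM in I-KO 4 and between 239.84 and 241.51 CPM in the other I-KO libraries, so that the gap took up 0.902 of the whole range. The range itself is narrow, and the I-KO 4 value lay within the lox/lox values of 215 to 237 CPM, with lox/lox 3 the lowest library for Ndufv1. I-KO 4 was the lowest of all 7 libraries in 31 of the 78 subunit genes (39.7%, against 17.4% of all tested genes).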

How the results depend on the processing

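No subunit gene passed an adjusted p of 0.05 in limma under any of the alternatives run. All genes past it numbered 9 with a trend and robust prior and 12 with array weights, in place of 4. Subunit genes at an unadjusted p under 0.05 numbered 2 with the replicate block (Cox6b2 and Ndufa3), 1 with array weights (Cox6b2), 1 after the length adjustment (Cox6b2) and 0 to 1 with a library left out. The number of subunit genes lower in I-KO was 13, and 33 with column totals, 7 with the replicate block and 6 to 46 with a library left out, 46 without lox/lox 3. The members' median log2 fold change of 0.047 was 0.0095 with column totals, where that of all tested genes was -0.032, and 0.098 with the replicate block, in which I-KO 4, the only library numbered 4, does not inform the genotype term. Deviations of same-numbered libraries correlated by -0.014, 0.18 and -0.0092 over all tested genes, where only lox/lox 2 correlated best with its own number. Over the members they correlated by 0.43, 0.060 and -0.26, where only lox/lox 1 did. The labels do not name the numbers as pairs, and correlations of so few libraries cannot exclude a pairing. Median levels per kb with the shortest coding transcript were 156 in complex I, 337 in complex II, 504 in complex IV and 499.8 in complex V. On the strand of the gene alone the ETS core was in 7.58% of the members and 10.5% of tested genes. With a library left out the medians lay between -0.015 and 0.11 in complex I, -0.017 and 0.057 in complex II, -0.0058 and 0.088 in complex III, 0.029 and 0.18 in complex IV and -0.020 and 0.067 in complex V, lowest without lox/lox 3 except in complex IV, where it was lowest without I-KO 1.

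Fitted values near 0 changed sign for 15 named genes. With column totals the median of all tested genes fell by 0.034, a shift common to all genes by construction, and the values were Atp5a1 -0.022, Atp5b -0.013, Atp5g1 -0.032, Atp5g2 -0.021, Atp5g3 -0.00052, Cox7a2 -0.024, Cyc1 -0.0024, Sdha -0.021, Uqcrfs1 -0.0044. The cause of the other changes was not tested. With array weights they were Atp5g2 -0.0032, Atp5s 0.034, Cox7b 0.014. With the replicate block they were Cox7b 0.030, Sdhd 0.030. With a library left out the lowest and highest values were Atp5a1 -0.029 to 0.039, Atp5b -0.0035 to 0.052, Atp5g1 -0.053 to 0.045, Atp5g2 -0.074 to 0.064, Atp5g3 -0.035 to 0.086, Atp5s -0.10 to 0.037, Cox7a2 -0.071 to 0.090, Cox7b -0.049 to 0.030, Cyc1 -0.0058 to 0.059, Sdha -0.017 to 0.043, Sdhb -0.018 to 0.071, Sdhc -0.0022 to 0.12, Sdhd -0.056 to 0.030, Uqcrc1 -0.0048 to 0.097, Uqcrfs1 -0.030 to 0.088. Precision was limited by the spread between libraries. The unadjusted 95% interval of the median subunit gene reached 0.23 on the log2 scale to either side, and larger differences also missed the adjusted threshold, such as that of Cpt1a at -0.72.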
